A study of Mus musculus with 13 samples.

Results

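The major histocompatibility genes described here are H2-K1, H2-D1, H2-Q4, H2-T23, B2m, Tap1, H2-Aa, H2-Ab1, H2-Eb1 and Cd74. These 10 genes were chosen by name out of 36158 genes with a listed transcript, and all 10 were listed and had enough counts to be tested in both tissues. They are represented by 54 transcripts. A further group of genes shares their sequence, since 49 listed genes carry a symbol that begins with H2-.

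Major histocompatibility proteins carry peptides to the cell surface, where T cells read them. Class I molecules are made by nearly every nucleated cell. A class I heavy chain pairs with beta-2 microglobulin, the product of B2m, and is loaded with peptides that the proteasome cuts in the cytosol and the transporter TAP moves into the endoplasmic reticulum. Class II molecules are made mainly by dendritic cells, macrophages and B cells, with an alpha and a beta chain that are guarded by the invariant chain, the product of Cd74, until a peptide from the endocytic route is loaded. Interferon raises both classes, acting on class I through Nlrc5 and on class II through Ciita, and endothelial cells can present antigen by either class.

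RNA was sequenced from aortic endothelial cells (ECs) and whole hearts of Hmox2-/- mice (KO), which carry a deletion of the gene for the heme-degrading enzyme heme oxygenase 2, and of Hmox2+/+ littermates (WT), all kept in room air. There were 3 EC WT, 3 EC KO, 4 heart WT and 3 heart KO libraries, each named below by tissue, genotype and replicate number. EC RNA was obtained by flushing the lumen of the aorta with lysis reagent, and heart RNA came from the pulverized organ, so the heart libraries hold RNA of all cardiac cells. The study describes the sequenced mice as young, and neither their sex nor their histocompatibility haplotype was given in the sources used here, and nothing ties an EC library to a heart library. The comparisons ask how the genes differ between Hmox2 genotypes in each tissue and whether that difference depends on the tissue.

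Total estimated counts were between 26067147 and 31619776 in 12 libraries and 7268626 in heart WT 1. Hmox2 was at 19.7% of its WT mean in EC KO and 20.3% in heart KO libraries. Mitochondrially encoded transcripts took 37.6% to 44.3% of counts in heart WT and 22.5% to 27.2% in heart KO libraries, and 19.4% to 30.9% in ECs. Summed Y-linked CPM (counts scaled to library size by the usual per-million convention) were 6.15 in EC KO 2 and 7.5 in EC KO 3 against 107 to 210 in the other 11 libraries. Low Y-linked counts were thus found in KO libraries alone, so in ECs this difference is partly confounded with genotype. In the EC libraries adipocyte markers summed to 10077 to 15519 CPM, fibroblast markers to 3908 to 8479 CPM and endothelial markers to 3383 to 7063 CPM. Markers of other cell types were thus present in the flushed preparations, though sums over different genes do not compare cell content. Cardiomyocyte markers summed to 143 to 531 CPM in EC WT and 12.8 to 16.4 CPM in EC KO libraries.

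The promoters of a class II pair and of a class I pair are shown to place the members beside the motifs by which their classes are known. Each run covers 250 bases before to 50 after the RefSeq start in GRCm38.p6, printed along the gene's strand. Capitals mark exact matches, on either strand, to the kappa-B site of class I enhancer A (the first run of capitals in the H2-K1 and H2-D1 lines), the interferon response core (GAANNGAAA), the Y box with its flank (CTGATTGG) and the CCAAT box (CCAAT, which on its reverse strand lies inside CTGATTGG).
H2-Aa, chr17:34287774-34288073, minus strand: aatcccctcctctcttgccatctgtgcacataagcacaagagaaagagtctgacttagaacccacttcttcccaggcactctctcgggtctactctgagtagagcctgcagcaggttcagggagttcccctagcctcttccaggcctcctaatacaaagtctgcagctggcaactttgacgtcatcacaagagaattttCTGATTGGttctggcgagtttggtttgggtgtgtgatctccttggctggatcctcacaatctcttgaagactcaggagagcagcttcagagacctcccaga
H2-Eb1, chr17:34305617-34305916, plus strand: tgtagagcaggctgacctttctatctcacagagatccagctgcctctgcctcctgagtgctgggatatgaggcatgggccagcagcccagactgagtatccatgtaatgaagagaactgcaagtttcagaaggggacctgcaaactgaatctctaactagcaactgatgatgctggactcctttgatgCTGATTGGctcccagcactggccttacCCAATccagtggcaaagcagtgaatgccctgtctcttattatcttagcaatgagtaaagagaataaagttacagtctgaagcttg
H2-K1, chr17:34000284-34000583, minus strand: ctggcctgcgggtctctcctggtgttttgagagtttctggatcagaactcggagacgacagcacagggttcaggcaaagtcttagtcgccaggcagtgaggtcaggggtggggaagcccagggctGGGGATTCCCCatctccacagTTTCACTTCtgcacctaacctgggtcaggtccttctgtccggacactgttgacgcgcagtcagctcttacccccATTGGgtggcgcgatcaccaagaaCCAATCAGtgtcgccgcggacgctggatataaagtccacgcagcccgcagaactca
H2-D1, chr17:35262844-35263143, plus strand: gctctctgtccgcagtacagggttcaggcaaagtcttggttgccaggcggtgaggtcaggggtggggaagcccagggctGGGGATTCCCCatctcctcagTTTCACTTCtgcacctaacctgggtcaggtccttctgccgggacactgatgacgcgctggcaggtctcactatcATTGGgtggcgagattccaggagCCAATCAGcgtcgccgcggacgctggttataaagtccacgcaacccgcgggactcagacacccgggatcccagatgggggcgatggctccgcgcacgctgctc
H2-Q10, chr17:35469839-35470138, plus strand: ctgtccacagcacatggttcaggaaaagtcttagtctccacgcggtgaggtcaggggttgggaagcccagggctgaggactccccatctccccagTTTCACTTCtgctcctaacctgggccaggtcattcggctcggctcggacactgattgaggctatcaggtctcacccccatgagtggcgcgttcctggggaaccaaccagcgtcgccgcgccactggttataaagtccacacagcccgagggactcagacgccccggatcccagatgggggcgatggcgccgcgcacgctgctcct

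The H2-K1 and H2-D1 windows hold all 4 motifs, while those of H2-Aa and H2-Eb1 hold the Y box and the CCAAT box without the kappa-B site or the interferon core. H2-Q10, a class I relative that is no member and is shown for its values below, holds the interferon core alone. Of 32851 promoter windows, 0.0304% hold the kappa-B site, 7.52% the interferon core, 4.1% the Y box and 37.4% the CCAAT box. Promoter windows were read for 8 of the 10 members. The windows of the class I members H2-T23 and Tap1 held the same motifs as those of H2-Aa and H2-Eb1. The H2-Q4 window held the interferon core and the CCAAT box, and the B2m window the CCAAT box alone. These motifs thus did not divide the members by class. A match says only that these letters are present.

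In GRCm39, 8 members lie on chromosome 17. H2-K1 spans chr17:34214987-34219321, Tap1 chr17:34405996-34416199, H2-Ab1 chr17:34476663-34488393, H2-Aa chr17:34493404-34506798, H2-Eb1 chr17:34504236-34535648, H2-D1 chr17:35481691-35486475, H2-Q4 chr17:35598586-35604274 and H2-T23 chr17:36340229-36345571. The annotated spans of H2-Aa and H2-Eb1 overlap on opposite strands, and the counting did not use strand. The exons of their listed transcripts do not overlap, as those of H2-Aa lie within 34501718-34506797 and those of H2-Eb1 within 34524813-34535648. B2m lies apart at chr2:121977957-121983594, and Cd74 lies on chromosome 18.

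TPM values, which scale counts by transcript length and so allow genes to be compared, set B2m first in all 4 groups. B2m was at 1153 ± 369 TPM in EC WT and 1239 ± 192 TPM in EC KO (SD, n = 3 each). In hearts it was at 154 ± 33.9 TPM in WT (SD, n = 4) and 196 ± 43.1 TPM in KO (SD, n = 3). TPM were used as deposited, without further scaling between libraries, and the mitochondrial share was higher in heart WT than in heart KO libraries. The part of that share in TPM differences between the heart genotypes was not tested. Tap1, a subunit of the peptide transporter, was last everywhere, with group means between 2.16 and 13.7 TPM.

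In EC WT libraries B2m was followed by H2-K1, H2-D1, Cd74, H2-Aa, H2-Eb1, H2-Ab1, H2-Q4, H2-T23 and Tap1. Only Cd74 and H2-Aa, and H2-T23 and Tap1, were neighbours in that order whose ranges over libraries did not overlap. In heart WT libraries Cd74 came after B2m at 72.5 ± 20.7 TPM, ahead of H2-K1 at 71 ± 24.3 TPM (SD, n = 4 each), which did not differ beyond their spread. In heart KO libraries Cd74 stood at 51.5 ± 9.39 TPM (SD, n = 3), below both H2-K1 and H2-D1, without overlap with H2-D1.

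All 10 members were higher in EC WT than in heart WT libraries, and no range overlapped between these groups. The mean TPM ratio of EC WT to heart WT was 10.4 for H2-K1 and 10.3 for H2-D1, the classical class I heavy chains. It was 7.49 for B2m, 3.15 for H2-Aa, 3.25 for H2-Eb1, 3.71 for H2-Ab1 and 3.96 for Cd74. The ratios of the class II genes were thus lower than those of the 6 class I genes, among which Tap1 was lowest at 5.83. These ratios are descriptions, with no test between tissues. Mitochondrially encoded transcripts took 37.6% to 44.3% of counts in heart WT and 19.4% to 30.7% in EC WT libraries. The part of that share in the ratios was not tested.

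**Figure D1:**
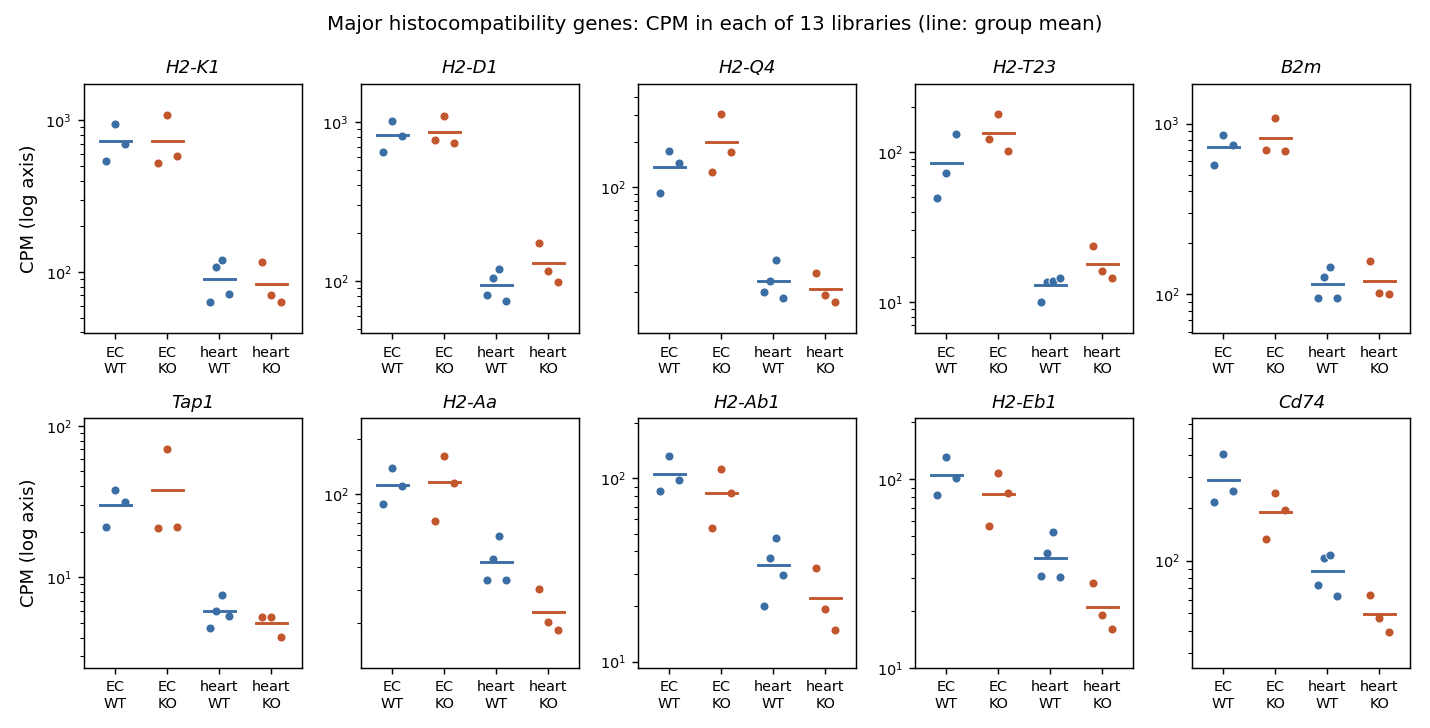
TMM-scaled CPM (log axis) of the 10 members, 1 panel per gene, with 1 point per library in the 4 groups. The EC genotypes overlap in every panel, whereas the heart KO points of H2-Aa lie between 18.2 and 30.5 CPM and the heart WT points between 34.1 and 59.7 CPM.

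In hearts, 3 of the 4 class II members were lower in Hmox2-/- mice. H2-Aa, H2-Eb1 and Cd74 passed the test (edgeR quasi-likelihood, Benjamini-Hochberg adjusted p of at most 0.05), all with lower values, and H2-Ab1 had a lower mean without passing. These were 3 of 10 members, beside 33.4% of all 13818 genes tested, of which 17.2% were called higher and 16.2% lower. A share of 3 of 10 is near that background. With an absolute log2 fold change of 1 or more also required, 0 of 10 members were called, beside 6.71% of all genes. By that rule 4 members (H2-Aa, H2-Ab1, H2-Eb1 and Cd74) were called with an offset for gene length and GC content, and the same 4 without heart KO 1, whereas H2-Aa alone was called without heart WT 1 or without heart WT 4. The median log2 fold change (KO against WT) of the members was -0.23, against -0.01 over all genes tested. In whole tissue, fewer cells that make a transcript and less of it per cell cannot be told apart.

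H2-Aa, which encodes the alpha chain of the I-A molecule, was at 34.1, 44.3, 59.7 and 34.2 CPM in heart WT 1 to 4 and at 30.5, 20.2 and 18.2 CPM in heart KO 1 to 3. Every KO library was below every WT library. The log2 fold change was -0.92 (SE 0.22, 95% interval -1.40 to -0.43, edgeR adjusted p = 0.00984), which is 0.529 of the WT level. The exact two-sided permutation test gave p = 0.0286, the smallest that 4 against 3 libraries allow. Over all alternatives run, the edgeR or DESeq2 adjusted p of H2-Aa stayed between 0.000219 and 0.0481. Groups that do not overlap were found for 40.4% of all genes tested in hearts. On the TPM scale, which is not TMM-scaled, heart KO 1 (34.5) lay above heart WT 1 (32.7) and heart WT 4 (31.5). The separation of H2-Aa was thus not seen on that scale.

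H2-Eb1, the beta chain of I-E, was at 30.5, 40.5, 52.2 and 30.3 CPM in heart WT 1 to 4 and at 28, 19 and 16 CPM in heart KO 1 to 3. The CPM of the groups did not overlap. On the TPM scale they did, as heart KO 1 (34.8) lay above heart WT 1 (28.1) and heart WT 4 (27.1). The log2 fold change was -0.88 (SE 0.22, 95% interval -1.37 to -0.40, edgeR adjusted p = 0.0118), with an exact two-sided permutation p of 0.0286. H2-Ea, which encodes the alpha partner of I-E, had no count in any of the 13 libraries. Without heart KO 2 the adjusted p of H2-Eb1 in edgeR was 0.054, the highest of a range that began at 0.000442 over the alternatives.

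Cd74 was at 72.4, 104, 108 and 62.8 CPM in heart WT 1 to 4 and at 63.5, 46.9 and 39.3 CPM in heart KO 1 to 3. Here heart KO 1 lay just above heart WT 4. The log2 fold change was -0.80 (SE 0.21, 95% interval -1.25 to -0.35, edgeR adjusted p = 0.0133), and the exact two-sided permutation p was 0.0857. Without heart KO 2 the edgeR adjusted p of Cd74 was 0.0573, the highest of a range that began at 0.00064 over the alternatives.

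H2-Ab1, the beta chain of I-A, was at 20.2, 36.9, 47.2 and 29.8 CPM in heart WT 1 to 4 and at 32.3, 19.3 and 14.8 CPM in heart KO 1 to 3. Its groups overlapped, as heart KO 1 exceeded heart WT 1 and heart WT 4. The log2 fold change of -0.62 (SE 0.28) did not pass in edgeR (adjusted p = 0.11). Without heart KO 1 it was -1.01 with an edgeR adjusted p of 0.0108, and with an offset for gene length and GC content it was -1.06 with an edgeR adjusted p of 0.00763, while the highest adjusted p of H2-Ab1 over the alternatives was 0.288. Summed over the 4 class II members, the level was 202 ± 54 CPM in heart WT (SD, n = 4) and 116 ± 34.2 CPM in heart KO libraries (SD, n = 3).

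Of the 6 class I members tested in hearts 0 passed in edgeR, and 3 of the 6 had a log2 fold change below 0. H2-K1 was at 63.2, 107, 120 and 71.2 CPM in heart WT 1 to 4 and at 117, 70.3 and 63.2 CPM in heart KO 1 to 3, with a log2 fold change of -0.12 (95% interval -0.66 to 0.42). The 2 genotypes of H2-K1 spanned almost the same range. H2-D1 was at 81.2, 104, 119 and 75.4 CPM in heart WT 1 to 4 and at 173, 115 and 99 CPM in heart KO 1 to 3. Its log2 fold change was 0.44 (SE 0.20), which missed the threshold in edgeR with an adjusted p of 0.107 and reached 0.60 with an edgeR adjusted p of 0.0267 without heart KO 3, at the low end of a range up to 0.65 over the alternatives. B2m had a log2 fold change of 0.04 (95% interval -0.37 to 0.46), H2-Q4 of -0.18 (-0.63 to 0.27) and Tap1 of -0.29 (-0.71 to 0.13).

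H2-T23 encodes the heavy chain of Qa-1, a nonclassical molecule that presents leader peptides of other class I chains to natural killer cell receptors. It was at 9.96, 13.6, 13.9 and 14.4 CPM in heart WT 1 to 4 and at 23.5, 16.1 and 14.4 CPM in heart KO 1 to 3. The groups met without overlapping. The log2 fold change of 0.45 (SE 0.17, 95% interval 0.07 to 0.83) did not pass in edgeR (adjusted p = 0.0677), and the exact two-sided permutation p was 0.0286. By DESeq2 the adjusted p of H2-T23 was 0.0471, and without heart KO 3 it was 0.018 in edgeR with a log2 fold change of 0.58, and over the alternatives it reached 0.611.

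In aortic ECs no member passed the test. Of the 10 members 0 passed in edgeR, where 0 had an unadjusted p under 0.05, and 0 passed in DESeq2, where 1 had an unadjusted p under 0.05. Of all 15303 genes tested in ECs 18.1% were called, 8.06% with lower values in KO, and 9.28% when an absolute log2 fold change of 1 or more was also required. All 10 members overlapped between EC WT and EC KO libraries, whereas 40.7% of all genes did not overlap. With 3 libraries against 3, the exact permutation test cannot go below 0.1, and the intervals below show how large a difference these libraries leave possible.

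Cd74 was at 216, 402 and 248 CPM in EC WT 1 to 3 and at 132, 242 and 193 CPM in EC KO 1 to 3, with a log2 fold change of -0.61 (95% interval -1.30 to 0.07, edgeR adjusted p = 0.179). H2-T23 was at 49.4, 72.1 and 131 CPM in EC WT 1 to 3 and at 122, 178 and 102 CPM in EC KO 1 to 3, with a log2 fold change of 0.67 (95% interval -0.17 to 1.51, edgeR adjusted p = 0.223). Both were the members furthest from 0 in ECs. Without EC WT 3, H2-T23 had a log2 fold change of 1.14 and an edgeR adjusted p of 0.0327, in a range up to 0.648 over the alternatives.

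H2-K1 was at 541, 947 and 701 CPM in EC WT 1 to 3 and at 525, 1092 and 578 CPM in EC KO 1 to 3, and its log2 fold change was 0.0039 (95% interval -0.77 to 0.77). H2-D1, with 644, 1021 and 820 CPM in EC WT 1 to 3 and 773, 1088 and 741 CPM in EC KO 1 to 3, had a log2 fold change of 0.07 (-0.49 to 0.62). In each gene, the spread among libraries of a genotype exceeded the difference of the means. B2m stood at 0.18 (-0.39 to 0.75), H2-Q4 at 0.56 (-0.27 to 1.39) and Tap1 at 0.32 (-0.78 to 1.42). Among class II chains, H2-Aa was at 0.04 (-0.64 to 0.72), H2-Ab1 at -0.35 (-0.99 to 0.30) and H2-Eb1 at -0.34 (-0.94 to 0.26).

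The libraries with the highest and lowest values were often the same for many members. EC KO 2 had the highest value of its group for 10 of 10 members, EC WT 2 for 9 of 10 and heart KO 1 for 10 of 10, while EC WT 1 and heart KO 3 were lowest for 10 of 10. The lowest heart WT values were split between heart WT 1 and heart WT 4 with 5 members each, and the lowest EC KO values between EC KO 1 with 7 and EC KO 3 with 3. H2-T23 was the exception at the top, with its highest WT values in EC WT 3 and heart WT 4. Ciita, the master regulator of class II, was at 21.4 CPM in EC KO 2 and between 3.79 and 9.63 CPM in the other EC libraries. Tap1 was at 70 CPM in EC KO 2, while EC KO 1 had 21.3 CPM and EC KO 3 had 21.4 CPM. The interferon-induced Nlrc5 was at 31.1 CPM in EC KO 2 and between 5.28 and 19.5 CPM in the other EC libraries.

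**Figure D2:**
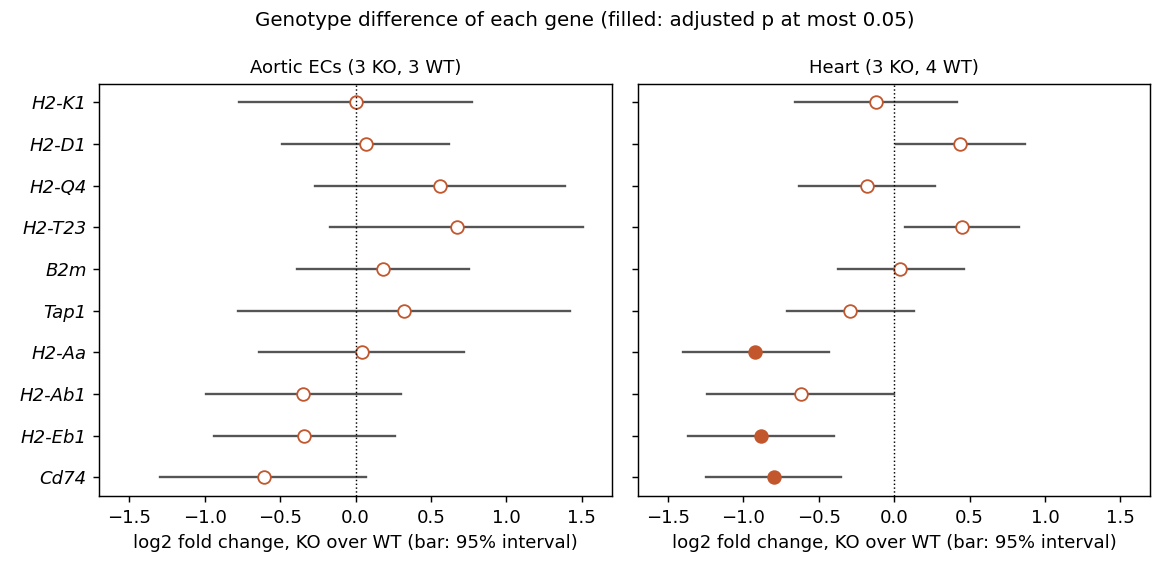
Log2 fold change of each member (KO against WT, points) with 95% intervals (bars) in ECs and hearts. The heart intervals of H2-Aa (-1.40 to -0.43), H2-Eb1 (-1.37 to -0.40) and Cd74 (-1.25 to -0.35) lie below 0 and all EC intervals cross 0.

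Whether the genotype difference depended on the tissue was tested by the interaction term over all 13 libraries. Of the 10 members 0 passed in edgeR, where 1 had an unadjusted p under 0.05, and 0 passed in DESeq2, where 1 had an unadjusted p under 0.05. Of all 15911 genes 28.9% were called, 16.2% with a higher and 12.7% with a lower value in hearts, and 15.4% when an absolute log2 difference of 1 or more was also required. H2-Aa had the largest difference among the members (heart minus EC, log2 -0.92, 95% interval -1.77 to -0.06, edgeR adjusted p = 0.099). For Cd74 the difference was -0.15 (-0.97 to 0.68), so that its fall in hearts is not shown to differ from its value in ECs. With the length and GC offset, H2-Aa (-1.67, edgeR adjusted p = 0.0092) and H2-Eb1 (-1.30, edgeR adjusted p = 0.0195) passed. Without EC KO 1, H2-Aa passed at -1.17 with an edgeR adjusted p of 0.0261. Over the alternatives the adjusted p ranged up to 0.784 for H2-Aa and 0.969 for H2-Eb1.

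Ciita, beside the members, passed among class II genes in hearts. It was at 1.64, 2.94, 2.63 and 1.77 CPM in heart WT 1 to 4 and at 1.44, 1.42 and 1.11 CPM in heart KO 1 to 3, a log2 fold change of -0.80 with an edgeR adjusted p of 0.0359 that was lost on leaving out any of 5 of the 7 heart libraries and with the length and GC offset. Of 13 tested genes of class II presentation 4 fell (H2-Aa, H2-Eb1, Cd74 and Ciita) and 1 rose. These 5 of 13 are near the 33.4% called over all genes, and 3 of them are members. The gene that rose was Rfxank (0.38, edgeR adjusted p = 0.036), a subunit of the factor that binds class II promoters, which lost its call when any of 6 of the 7 libraries was left out. H2-DMa, which loads peptides on class II, was at -0.57 with an edgeR adjusted p of 0.0805. The list's median log2 fold change was -0.62 in hearts. In ECs 0 of 14 passed in edgeR and the median was -0.21.

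Of 15 genes of class I processing in hearts, 5 rose and 1 fell, beside 33.4% called over all genes, and the median log2 fold change was 0.10. Those that rose were the immunoproteasome subunits Psmb10 (0.77, edgeR adjusted p = 0.00865) and Psmb8 (0.60, 0.0278), the proteasome activators Psme1 (0.49, 0.0146) and Psme2 (0.44, 0.0268) and the peptide editor Tapbpl (0.58, 0.015). Psmb8 lost its call without any of 5 of the 7 heart libraries and Psme2 without any of 4. With the length and GC offset the calls of Psmb10 (0.29), Psmb8 (0.14) and Psme2 (-0.11) ended, and that of Psme1 did not. Canx, a chaperone of new heavy chains, fell by 0.38 on the log2 scale (edgeR adjusted p = 0.00845), and with length-scaled counts its value was -0.12 without passing. In ECs 2 of 15 rose, beside 18.1% called over all genes. These were the folding enzyme Pdia3 (0.65, edgeR adjusted p = 0.0281) and Canx (0.45, 0.044), and the list's median was 0.20. The EC call of Canx was lost without any of the 6 EC libraries, and that of Pdia3 without any of 5.

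Interferon response genes did not move one way. Of 23 tested in hearts, Gbp2 (0.79, edgeR adjusted p = 0.00664) and Rsad2 (0.73, 0.019) rose, while Xaf1 (-1.67, 0.000264) and Iigp1 (-0.88, 0.00348) fell, and the median was 0.05. With length-scaled counts Xaf1 in hearts was at -0.40 and no longer passed. In ECs 1 of 24 passed, Xaf1 at -2.10 (edgeR adjusted p = 0.0187), and the median was -0.45. Over all genes tested, 33.4% were called in hearts and 18.1% in ECs. The list summed to 478, 734 and 1323 CPM in EC WT 1 to 3 and to 498, 1343 and 518 CPM in EC KO 1 to 3. EC WT 3 and EC KO 2 were thus each the highest of their group. Ifit3 was at 146 CPM in EC WT 3, 14.9 CPM in EC WT 1 and 26.2 CPM in EC WT 2. Without EC WT 3, an alternative added after seeing the data, the median was 0.32 and 2 of 24 passed (Ifit1 and Xaf1). Without EC KO 2 the median was -0.83, and without any other single EC library it lay between -0.69 and -0.39. The EC call of Xaf1 was lost with length-scaled counts (-1.09), without EC KO 1 (edgeR adjusted p = 0.0597) and without EC KO 3 (0.0851). Nlrc5, the regulator of class I, was at 0.25 in ECs and -0.44 in hearts on the log2 scale, with edgeR adjusted p of 0.796 and 0.346.

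Markers of cells that carry class II were compared in the same libraries. In hearts 6 of 16 macrophage and monocyte markers rose and 0 fell, beside 33.4% of all genes called, 17.2% with higher values. Lyz2 (1.16, edgeR adjusted p = 0.002), C1qa (0.94, 0.0123) and Lyve1 (0.91, 0.00415) led those that rose. The summed level of the list was 171 to 250 CPM in WT and 277 to 451 CPM in KO libraries. The other 10 markers did not pass, and 6 of the 16 had a log2 fold change below 0, among them Cx3cr1 at -1.27 (edgeR adjusted p = 0.1) and Ly6c2 at -0.77 (0.064). With the length and GC offset C1qa (0.46) and Cd68 (0.47) no longer passed in edgeR, and C1qb lost its call without any of 3 of the 7 heart libraries. Of 10 pan-leukocyte markers, Coro1a (0.91, edgeR adjusted p = 0.0206) and Lcp1 (0.61, 0.0226) rose, and Ptprc, which encodes CD45, was at -0.61 with an edgeR adjusted p of 0.0525. Their sum was 32.8 to 47.6 CPM in heart WT and 41.2 to 60.6 CPM in heart KO libraries.

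Of 6 dendritic cell markers tested in hearts 0 passed in edgeR, and their sum was 12.6 to 17 CPM in WT and 12.8 to 14.3 CPM in KO libraries. Among 3 B cell markers Blk fell, and the sum was 7.75 to 10.9 CPM in WT and 6.37 to 13.3 CPM in KO libraries. Among 4 neutrophil markers Mmp9 fell, with Ly6g at 0 in every heart library, and of the T and NK cell markers 1 was tested and did not pass. The dendritic and B cell sums overlapped between genotypes, whereas the neutrophil sum was 2.6 to 4.01 CPM in WT and 1.66 to 2.21 CPM in KO libraries. Of all single genes tested in hearts 40.4% did not overlap. With length-scaled counts Mmp9 was at -0.82 and no longer passed. All 5 erythroid markers tested rose, from a sum of 183 to 341 CPM in WT to 887 to 1456 CPM in KO libraries. The part of cell content in the class II result was not tested.

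In hearts 3 of 12 cardiomyocyte markers rose and 2 fell, with sums of 58826 to 64809 CPM in WT and 58987 to 64418 CPM in KO libraries. Of 12 endothelial markers 3 rose and 1 fell, of 10 smooth muscle markers 4 rose and 1 fell, of 10 fibroblast markers 1 rose and 2 fell, and of 7 adipocyte markers 1 rose and 1 fell. Over all genes tested in hearts 17.2% were called higher and 16.2% lower.

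In the EC libraries 7 of 16 macrophage markers rose, with a sum of 553 to 738 CPM in WT against 952 to 1461 CPM in KO. Cd163 (1.44, edgeR adjusted p = 0.00511), Lyve1 (1.29, 0.0075) and Lyz2 (1.09, 0.0254) led the list. Ccr2, Cd68 and Mrc1 each lost their call without any of 5 of the 6 EC libraries and Lyz2 without any of 3, and Ccr2 (0.49) and Mrc1 (0.57) no longer passed with the length and GC offset. Cd53 was the 1 of 10 pan-leukocyte markers to rise, and Cd209a the 1 of 9 dendritic cell markers. Of B cell, T and NK cell, neutrophil and erythroid markers 0 passed in ECs by edgeR. T and NK cell markers summed to 230 CPM in EC WT 2 and to 24.6 to 80.3 CPM in the other EC libraries. Of 12 endothelial markers 5 rose and 1 fell, of 12 cardiomyocyte markers 11 fell, of 10 smooth muscle markers 5 fell, of 10 fibroblast markers 3 rose and 1 fell, and of 10 adipocyte markers 2 fell. The part of this difference in tissue content in the EC values of the members was not tested.

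**Figure D3:**
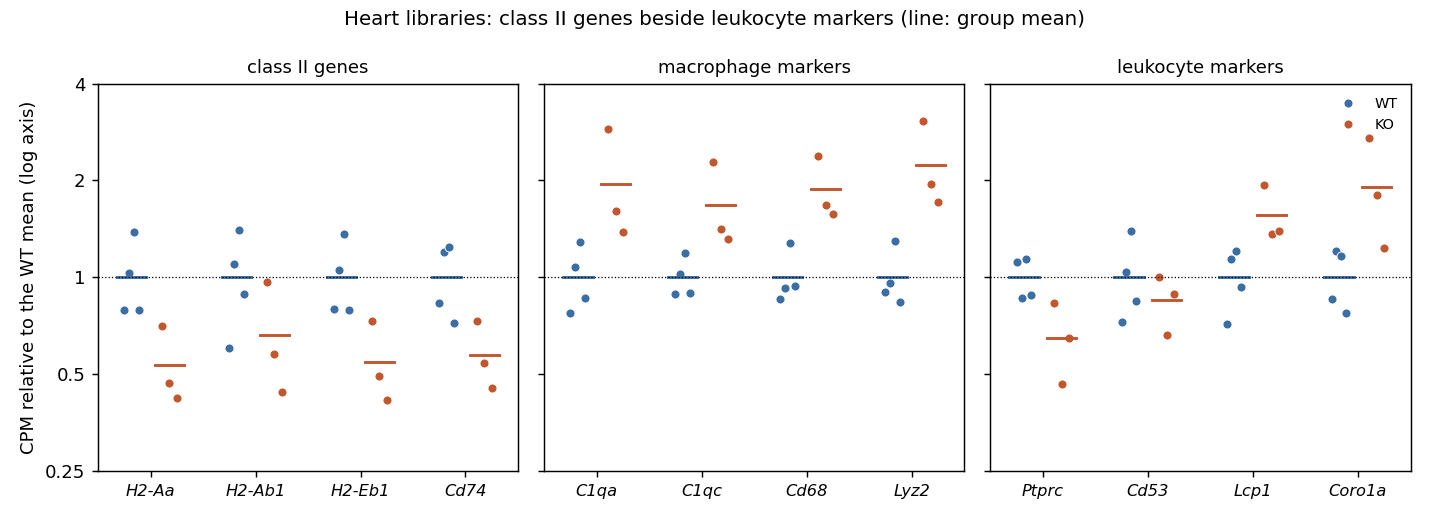
Levels in each heart library relative to the heart WT mean (log axis) for the class II members, 4 of the 6 macrophage markers that rose (C1qa, C1qc, Cd68, Lyz2) and 4 pan-leukocyte genes (Ptprc, Cd53, Lcp1, Coro1a), with lines at group means. In heart KO libraries the class II points of H2-Aa, at 18.2 to 30.5 CPM, lie below those of heart WT, while C1qa, at 22.2 to 46.4 CPM, lies above the 12.5 to 20.7 CPM of heart WT. The macrophage markers drawn were picked from those that passed. Of all 16 in the list, 6 had a log2 fold change below 0 in hearts and are not drawn. With the replicate block C1qa, C1qc and Cd68 did not pass.

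The ratio of H2-Ab1 to Ptprc CPM, a planned description of class II per leukocyte transcript, overlapped between genotypes in both tissues. It was 3.89, 9.2, 8.84 and 7.25 in heart WT 1 to 4 and 8.34, 8.86 and 4.91 in heart KO 1 to 3. In EC libraries it was 5.87, 2.91 and 4.6 in WT 1 to 3 and 2.99, 5.35 and 2.55 in KO 1 to 3. Further ratios were chosen after the values were seen and were not tested. The ratio of Cd74 to C1qa was 4.51 to 5.97 in heart WT and 1.37 to 1.81 in heart KO libraries, and 3.34 to 6.85 in EC WT and 1.11 to 2.69 in EC KO libraries. The ratio of H2-D1 to H2-K1 was 0.979 to 1.28 in heart WT and 1.48 to 1.63 in heart KO libraries, and it overlapped in ECs, at 1.08 to 1.19 in WT and 0.996 to 1.47 in KO.

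**Figure D4:**
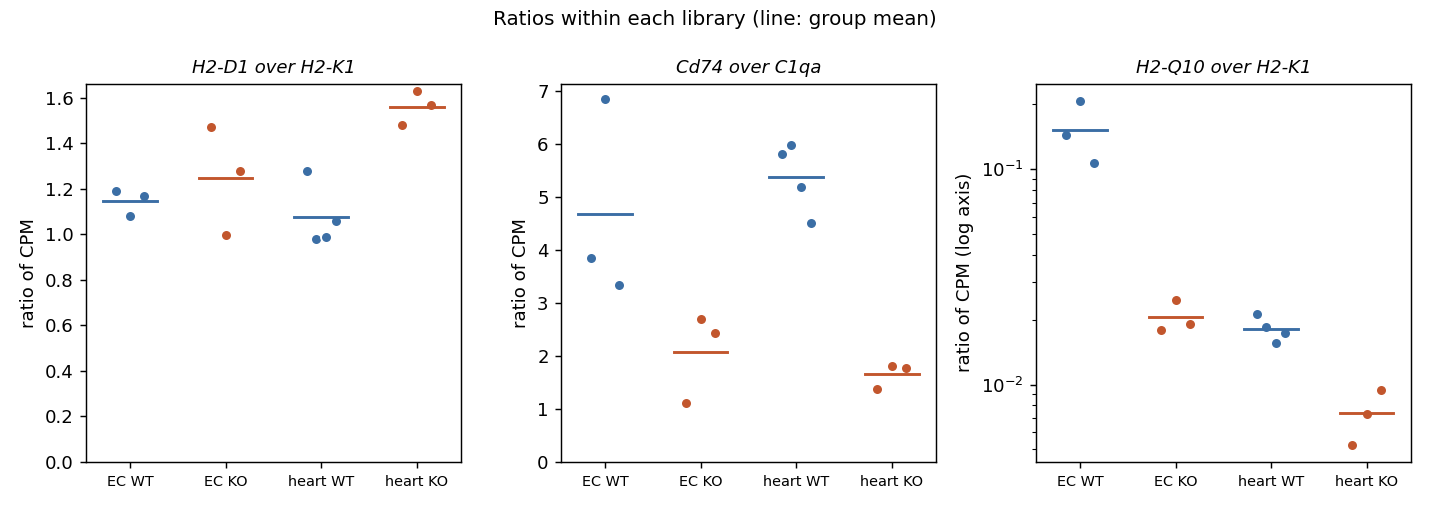
CPM ratios per library in the 4 groups for H2-D1 over H2-K1, Cd74 over C1qa and H2-Q10 over H2-K1. The H2-D1 over H2-K1 points of heart KO (1.48 to 1.63) lie above those of heart WT (0.979 to 1.28), and the other 2 ratios lie lower in KO in both tissues. These ratios were chosen after the values of their genes were seen, so their separation adds no evidence beyond the single genes.

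Reads of class I genes can be split among near-identical copies. Of the 31-base words in each gene's listed transcripts, the share also found in other genes was 22.8% for H2-K1, 26.7% for H2-D1, 38.4% for H2-Q4 and 25.3% for H2-T23. It was 0.911% for H2-Aa, 0.267% for H2-Ab1, 1.05% for H2-Eb1, 1.41% for Cd74, 6.63% for Tap1 and 0% for B2m. These shares were counted in reference transcripts, over all listed transcripts of a gene together. In the main transcripts alone they were 23.3% for H2-K1-201, 27.5% for H2-D1-202, 43.6% for H2-Q4-201 and 49% for H2-T23-201. Each class I heavy chain value is uncertain as a value of a single gene. With the counts of all listed class I H2 genes summed to 1 row, an alternative chosen after seeing the data, the log2 fold change was 0.07 in ECs and 0.07 in hearts. The summed level was 1693 to 2979 CPM in EC WT, 1833 to 3404 CPM in EC KO, 221.2 to 379 CPM in heart WT and 239.5 to 401.5 CPM in heart KO libraries.

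Among the H2- genes that are no members, H2-Q10, a class I gene best known as a secreted product of liver, was lower in KO libraries of both tissues. It was at 77.7, 197 and 75.3 CPM in EC WT 1 to 3 and at 9.42, 27 and 11 CPM in EC KO 1 to 3 (log2 fold change -2.88, edgeR adjusted p = 0.014). In hearts its log2 fold change was -1.50 (edgeR adjusted p = 0.00413), at levels of 1.24 to 1.97 CPM in WT and 0.514 to 0.617 CPM in KO libraries. Relative to H2-K1, H2-Q10 stood at 0.107 to 0.208 in EC WT and 0.0179 to 0.0248 in EC KO libraries. The EC call of H2-Q10 was lost without EC KO 3 (edgeR adjusted p = 0.0704), and 30.1% of its words were shared with other genes.

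Of 29 H2- genes tested in ECs 2 fell, H2-Q10 and H2-Q1 (-2.19, edgeR adjusted p = 0.0482), and the call of H2-Q1 was lost without any of 5 of the 6 libraries. Of 20 tested in hearts 5 fell and 1 rose. Over all genes tested, 18.1% were called in ECs and 33.4% in hearts. Beside H2-Aa and H2-Eb1 the H2- genes called in hearts were H2-Q10, H2-Q5 (-1.44, edgeR adjusted p = 0.0223) and H2-Q7 (-1.20, 0.0179), which fell, and H2-T24 (0.81, 0.0106), which rose. H2-Q5 shared 57.8% and H2-Q7 40% of their words with other genes. H2-Q5 lost its call without any of 4 of the 7 heart libraries, and H2-Q7 lost it without heart KO 2 (edgeR adjusted p = 0.0718). Haplotypes that differ from the reference can change which class I gene a read is assigned to, and their part in these values was not tested.

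Transcript estimates differed between genotypes within H2-K1 in a way the gene totals did not. H2-K1-215, annotated as a retained intron of 457 bases, took 26.9% to 29.9% of the H2-K1 TPM in EC WT and 0% to 5.39% in EC KO libraries. In hearts the order was the other way, at 11.2% to 29.4% in WT and 34.3% to 41.8% in KO libraries. All 427 words of H2-K1-215 lie in other H2-K1 transcripts and 4.68% of them in other genes, so its share rests on how shared reads were divided. The coding H2-K1-201 held 57.5% to 61.4% in EC WT, 75.8% to 78.1% in EC KO, 55.4% to 69% in heart WT and 49.3% to 56.1% in heart KO libraries. Transcript shares were not tested.

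**Figure D5:**
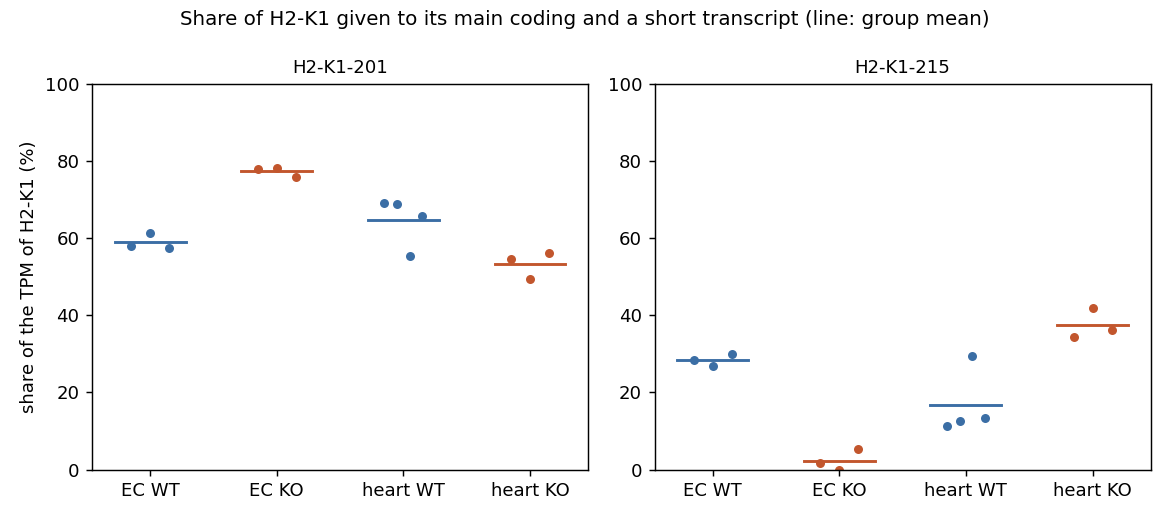
Share of H2-K1 TPM (percent) assigned to H2-K1-201 and H2-K1-215 in each library of the 4 groups. H2-K1-215 lies at 0% to 5.39% in EC KO libraries and at 34.3% to 41.8% in heart KO libraries.

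For H2-Eb1 much of the TPM went to transcripts not annotated as coding the full chain. H2-Eb1-205, annotated as a target of nonsense-mediated decay, held 57.6% to 64.4% in EC WT and 33.6% to 45.1% in EC KO libraries, and 39% to 72.4% in heart WT and 53.8% to 56.8% in heart KO libraries. The retained-intron transcript H2-Eb1-202 held 3.28% to 8.69% in EC WT and 18.9% to 23.4% in EC KO libraries, and 0% to 14% in heart WT and 6.2% to 26.5% in heart KO libraries. These shares separated the genotypes in ECs and overlapped in hearts. Only 2.76% of the words of H2-Eb1-205 and 2.13% of those of H2-Eb1-202 lie in no other listed transcript. The shares therefore rest largely on how shared reads were divided, and they were not tested. B2m and its single listed transcript need no such division.

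The genes whose deviations from the group means were most like those of H2-Ab1 over the 13 libraries, among 13353 genes, were H2-Eb1 (Pearson's r 0.956), H2-Aa (0.941), H2-DMb1 (0.933), H2-K1 (0.928) and Hpn (0.893). For H2-K1 they were B2m (0.981), H2-D1 (0.96), Tgtp2 (0.939), H2-Eb1 (0.938) and H2-Q4 (0.931). These values are descriptions over libraries that share their depth and scaling.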

How the data were processed

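The libraries were directional, of mRNA taken by oligo-dT, and were read as paired ends. The authors quantified transcripts with kallisto 0.44.0 at default parameters, which ignore strand, and deposited, per transcript, estimated counts, TPM and effective length. Their methods name a GENCODE M32 (GRCm39) index, whereas their processing notes also list other builds, so the index build is not certain. Here 97.2% of 118489 transcripts were matched by stable identifier to GENCODE M39, and the deposited estimated counts were added up within genes, then rounded. Identifiers that were not matched took 0.747% to 1.01% of counts per library. The deposited TPM values were summed per gene for levels.

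Each tissue was fitted alone with edgeR 4.0.16 (TMM scaling, filterByExpr with a minimum count of 10, quasi-likelihood test) in R 4.3.3, and the interaction was fitted over all 13 libraries, with Benjamini-Hochberg adjustment over all genes tested and a threshold of 0.05. CPM are TMM-scaled. Exact two-sided permutation tests used log2(CPM + 0.5). DESeq2 1.42.0 was an alternative, as were other scalings, filters and length-scaled counts, a per-gene length and GC offset, the replicate block, and fits with single libraries left out. Scripts were tested on simulated counts. The labels name separate samples without saying that each is a separate animal, so p-values measure the spread between these samples.

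The members and the pathway and cell type lists (class I processing, class II presentation, interferon response, and pan-leukocyte, macrophage, dendritic, B, T and NK, neutrophil, endothelial, cardiomyocyte, smooth muscle, fibroblast, erythroid and adipocyte markers) were chosen with earlier results of these data known. Named besides the members were Hmox2, Ciita, Nlrc5 and Ptprc, up to 6 genes of each pathway list and of the other H2- genes and up to 3 of each cell type list with the largest change among those that passed, and the 5 genes most like H2-Ab1 and H2-K1. Other genes were named after their values were seen. Promoters came from RefSeq (GRCm38.p6).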

Additional observations from a re-analysis of the deposited data

Results flagged for a closer look

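No member was flagged. Among 10 tests of the heart WT group, 1 per member, no library stood apart from the others by Dixon's test at its 95% critical value. The groups of 3 libraries were not tested in this way, so a library apart in them could not be flagged. In EC KO 1 to 3, Tap1 was at 21.3, 70 and 21.4 CPM. Genes of the pathway lists and other H2- genes were flagged because their genotype effect differed between tissues in the edgeR interaction test, with values given as the heart minus the EC log2 fold change. Among genes of class I processing the difference was 0.92 for Psme1, 0.79 for Psme2, -0.67 for Calr and -0.80 for Canx. Psme2 stood at -0.10 with the length and GC offset, Canx at -0.21 with length-scaled counts, where it no longer passed, and Calr lost its call without any of 6 of the 13 libraries. Of the class II and interferon lists, Rfxank was at 0.72 and Rsad2 at 1.56, and Rsad2 lost its call without any of 9 of the 13 libraries. Among H2- genes the difference was 1.59 for H2-T24, 3.70 for H2-Q1, -2.14 for H2-Q5, -1.10 for H2-K2 and -4.02 for H2-M5. The values of H2-M5 and H2-Q1 rest on few counts. H2-M5 had at most 8 counts in EC WT, 18 in EC KO, 5 in heart WT and 1 in heart KO libraries. H2-Q1 had at most 49, 10, 3 and 9 in the same groups. The call of H2-K2 (edgeR adjusted p = 0.0495) was lost without any of 10 of the 13 libraries, that of H2-Q5 without any of 6 and that of H2-Q1 without any of 4.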

How the results depend on the processing

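The count of members passing in ECs was 0 under every alternative run except the replicate block (1, Cd74) and 1 of the fits that leave out a library (0 to 1, H2-T23 without EC WT 3). In hearts it was 3 to 4 except when a log2 fold change beyond 1 in size was also required (0) and on leaving out a library (1 to 5), with 1 without heart KO 2 and 5 without heart KO 3. For the interaction it was 0 except with the length and GC offset (2), that offset with the replicate block (2) and on leaving out a library (0 to 1). Without heart WT 1, the shallowest library, 3 members passed in hearts.

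Replicate numbers were not shown to pair the samples. With the replicate block, 4 of the 6 macrophage marker calls in hearts (C1qa, C1qb, C1qc and Cd68) were not made. The correlation of deviations between same-numbered WT and KO libraries was 0.214, 0.065 and 0.067 in ECs and -0.067, 0.101 and 0.05 in hearts. With the replicate block the log2 fold change in ECs was -0.01 for H2-Aa and -0.04 for H2-K1, and in hearts -0.06 for B2m. With the block and the offset together it was -0.0019 for B2m in ECs, -0.40 for B2m and -0.15 for Psme2 in hearts, and -0.06 for H2-D1 and -0.13 for Psme2 in the interaction.

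The values below changed sign, and the cause was not tested. With length-scaled counts H2-K1 was at -0.26 in ECs, 0.10 in hearts and 0.39 in the interaction. With the offset alone B2m was at -0.31 and Psme2 at -0.11 in hearts, and Psme2 at -0.10 in the interaction. In 1 fit of all 13 libraries H2-Aa was at -0.00018 and H2-K1 at -0.03 in ECs. Without EC KO 2 and EC KO 3, which lack Y-linked counts, 1 EC KO library remained, assumed to vary like the WT group, and in ECs B2m was at -0.05, H2-Aa at -0.66, H2-D1 at -0.10, H2-K1 at -0.47, H2-Q4 at -0.12 and Tap1 at -0.50. The interaction then was 0.13 for B2m, 0.37 for Cd74, 0.39 for H2-Ab1, 0.05 for H2-Eb1, 0.39 for H2-K1 and 0.25 for Tap1.

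Leaving out 1 library at a time gave EC ranges of -0.06 to 0.31 for B2m, -0.27 to 0.30 for H2-Aa, -0.13 to 0.24 for H2-D1, -0.40 to 0.24 for H2-K1 and -0.49 to 0.61 for Tap1. In hearts it gave -0.20 to 0.17 for B2m, -0.45 to 0.05 for H2-K1 and -0.39 to 0.02 for H2-Q4. In the interaction it gave -0.33 to 0.15 for B2m, -0.46 to 0.08 for Cd74, -0.60 to 0.05 for H2-Ab1, -0.39 to 0.33 for H2-K1, -0.65 to 0.10 for H2-T23 and -0.86 to 0.25 for Tap1. H2-Aa, H2-Eb1 and Cd74 stayed lower in hearts under every alternative run. Summing each member with single genes that share much of its sequence was not run. No gene reached the planned share over a member's listed transcripts together (the highest was 19.4%, between H2-Q4 and H2-Q6). Among single transcripts H2-T23-201 exceeded it, with 25.5% of its words in H2-T11-ps. Depth limits the rarer H2- genes, of which 12 had at most 3 counts in every library.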
